A study of Mus musculus with 40 samples.

Results

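The genes described here are those of the cornified envelope and late epidermal differentiation: every row of the expression table whose symbol begins with Sprr or Lce, and 20 listed genes for keratins, envelope precursors, crosslinking enzymes, proteases, lipid enzymes and corneodesmosome proteins. The rule found 54 of the 23812 rows. Of these, 48 had at least 1 FPKM (fragments scaled to transcript length and to the mapped fragments of the library) in at least 4 of the 16 ear skin libraries, a filter that 12995 rows passed in all. The kept genes were 11 of 15 Sprr rows, 19 of 20 Lce rows and 18 of the 19 listed genes that have a row. Flg, the filaggrin gene, was not analysed here. Sprr2b, Sprr2j-ps, Sprr2k, Sprr3 and Crnn reached 1 FPKM in 0 skin libraries, and Lce3a did so in 3. Just inside the filter, Sprr2f and Lce3b reached it in 4 libraries.

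Keratinocytes that leave the basal layer of the epidermis switch to the keratins Krt1 and Krt10, and later to Krt2. In the upper layers transglutaminases crosslink loricrin, involucrin, small proline-rich (Sprr) and late cornified envelope (Lce) proteins into a shell under the cell membrane, while lipoxygenases prepare the lipids bound to its outside. Kallikrein proteases cut the corneodesmosomes that hold the dead cells together, which lets them shed. Many of these genes sit side by side in the epidermal differentiation complex, and here 35 of the 48 kept members lie on mouse chromosome 3.

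RNA of ear skin was sequenced in 4 groups of 4 libraries. DTR skin came from a cross of C57BL/6 mice that carry the Gt(ROSA)26Sortm1(HBEGF)Awai allele, a diphtheria toxin receptor, with B6.129S1(Cg) mice that carry Mrgprdtm1.1(cre)And, in which Cre is made from the Mrgprd locus of sensory neurons. The receptor is therefore made wherever that locus is or was active. Their labels give intraperitoneal diphtheria toxin (DT) and acetone with olive oil (4:1). Cre skin came from B6.129S1(Cg) mice that share the Mrgprdtm1.1(cre)And allele and lack the receptor. Their labels list acetone and olive oil alone, whereas the protocol text gives toxin for 3 to 4 weeks to both genotypes, so whether Cre mice received it is not settled. β-alanine (β-ala) skin and PBS skin came from C57BL/6J mice whose ears received 50 mM β-ala, a ligand of the MrgprD receptor, or PBS once a day for 2 days. Ages are not given in the sources used here. Nothing states that the 4 libraries of a group are 4 animals, so p-values measure the spread between these libraries.

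The labels call the samples epidermal and the design text calls them whole ear. All 12 skeletal muscle markers were present, with sums of 935 to 6027 FPKM per library, as were 12 basal keratinocyte markers (5052 to 6596 FPKM), so these are not epidermis alone. Xist lay between 24.5 and 37.1 FPKM in DTR and Cre libraries and under 0.11 FPKM in β-ala and PBS libraries, while Ddx3y, a Y-linked gene, was at 0 in DTR and Cre libraries and at 11.8 to 19.2 FPKM in the others. The wild-type groups therefore differ from DTR and Cre skin in sex as well as in stock and vehicle. Summed FPKM ranged from 427797 to 508485 per library, and replicates correlated with a Pearson r of 0.9843 to 0.9961 across genes. No counts were given, so depth is unknown. In bulk tissue, fewer cells of a type and less RNA per cell cannot be told apart. A pair of single values stands apart. Krt2 is listed at 0 in PBS library 3 and Sprr4 at 0 in Cre library 4, where the other libraries of those groups held 4907 to 6031 FPKM of Krt2 and 5.60 to 8.36 FPKM of Sprr4. Such a 0 can be a failed estimate, so these genes are given library by library, and results that rest on a 0 are also given with it set to missing.

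The kept members together made up 4.62% to 4.88% of summed FPKM in DTR libraries, 4.05% to 4.18% in Cre libraries and 4.10% to 4.59% in β-ala libraries. In PBS libraries the share was 3.18% to 4.63%, the lowest being library 3 with its missing Krt2. Krt10 was the highest member, at 6429 to 6864 FPKM in DTR, 5452 to 5988 FPKM in Cre, 6641 to 7625 FPKM in β-ala and 6542 to 7518 FPKM in PBS skin. Krt1, its usual partner, was far lower, with averages of 158 ± 26.3, 161 ± 7.57, 295 ± 40.9 and 295 ± 89.7 FPKM in DTR, Cre, β-ala and PBS skin (SD, n = 4). The 13 Lce1 genes summed to 3608 ± 199 FPKM in DTR, 3755 ± 259 FPKM in Cre, 5846 ± 703 FPKM in β-ala and 5876 ± 494 FPKM in PBS skin. The 5 kept Lce3 genes, known from human skin for induction by injury, summed to 12.5 ± 1.36, 18.2 ± 4.95, 23.8 ± 9.93 and 38.3 ± 19.96 FPKM in the same order. Lce3c held most of this sum.

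Several members are near copies of one another, which limits how well reads can be assigned among them. Of the 48 kept members, 20 shared over 10% of their 50-base words with another gene in the GENCODE M21 transcripts, and 23 shared 0. Sprr2a1 and Sprr2a2 shared 96.28% and 96.45%, so their 2 values are not separate measurements. Median sharing was 19.94% for the 13 Lce1 genes, 43.73% for the 5 Lce3 genes and 7.236% for the 8 kept Sprr2 genes. Values of single genes that share words are less certain, by an amount not measured here. Lce1m, Sprr2g and Sprr2h shared 0. To show how close these families are, the first 60 coding bases of 7 members follow, read 5′ to 3′ from GRCm38, a later build than the mm9 of the expression table. Capitals mark bases that differ from the first sequence of each family. Sprr2a2 differs from Sprr2a1 at 0 of 60 bases, Sprr2d at 6 and Sprr2h at 5. Lce1a2 differs from Lce1a1 at 1 base and Lce1k at 9.
Sprr2a1 (chr3:92219092-92219151, plus strand): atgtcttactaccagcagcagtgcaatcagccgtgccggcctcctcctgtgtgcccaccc
Sprr2a2 (chr3:92253905-92253964, plus strand): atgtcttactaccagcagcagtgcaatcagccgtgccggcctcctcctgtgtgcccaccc
Sprr2d (chr3:92340254-92340313, plus strand): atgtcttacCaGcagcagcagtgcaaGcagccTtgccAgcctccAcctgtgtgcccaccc
Sprr2h (chr3:92386632-92386691, plus strand): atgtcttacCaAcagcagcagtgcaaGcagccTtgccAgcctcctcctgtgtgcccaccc
Lce1a1 (chr3:92647106-92647165, minus strand): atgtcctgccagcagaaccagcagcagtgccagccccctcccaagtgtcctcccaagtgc
Lce1a2 (chr3:92669194-92669253, minus strand): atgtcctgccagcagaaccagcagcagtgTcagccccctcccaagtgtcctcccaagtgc
Lce1k (chr3:92806816-92806875, minus strand): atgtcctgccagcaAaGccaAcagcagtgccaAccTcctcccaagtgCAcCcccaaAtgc

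The first comparison set DTR skin, where toxin is meant to remove MrgprD neurons, against Cre skin. No value here measures that loss. The groups also differ in the receptor allele, in stock and, by the labels, in toxin, and these cannot be told apart. In DTR skin, 5 members were higher: Tgm3, Aloxe3, Krt10, Krt2 and Sprr1a, which belong to crosslinking, lipid processing, the keratin cytoskeleton and the envelope itself. Klk5, a kallikrein of corneodesmosome shedding, was lower. Their folds were small, from 0.848 for Klk5 to 1.42 for Tgm3. Changes are given on the log2(FPKM + 1) scale and were tested with limma, whose p-values were Benjamini-Hochberg adjusted across all 12995 kept genes, and the threshold was 0.05. The 6 of 48 members called are 12.5%, beside 12.9% of all genes tested, so members were called about as often as genes at large. In the higher direction the 5 members are 10.4%, beside 7.13% of all genes, and the 1 lower member is 2.08%, beside 5.81%. The median log2 change of the members was -0.04, beside 0.01 over all genes.

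Tgm3, a transglutaminase of the hair follicle and upper epidermis (mm9 chromosome 2, 129838109 to 129876135), was at 14.1, 14.2, 17.7 and 14.4 FPKM in DTR libraries, against 10.3, 11.2, 9.35 and 10.4 FPKM in Cre libraries. Every DTR library lay above every Cre library, and the log2 change was 0.50 (SE 0.077, adjusted p = 0.00581). Aloxe3, a lipoxygenase of the lipid envelope (chromosome 11, 68939878 to 68962617), was at 25.6, 23.9, 24.4 and 23.99 FPKM in DTR libraries and at 20.99, 21.4, 19.8 and 19.1 FPKM in Cre libraries. The groups again did not overlap, with a log2 change of 0.26 (SE 0.045, adjusted p = 0.00977). Alox12b, the neighbouring lipoxygenase that acts before Aloxe3, stood at 32.9 ± 3.28 FPKM in DTR and 31.6 ± 2.36 FPKM in Cre skin (SD, n = 4) and did not pass (adjusted p = 0.644). Klk5 (chromosome 7, 51097638 to 51106551) was at 63.9, 64.0, 68.2 and 63.1 FPKM in DTR libraries, against 76.5, 76.6, 72.8 and 80.6 FPKM in Cre libraries. It was lower in each DTR library than in any Cre library, with a log2 change of -0.24 (SE 0.042, adjusted p = 0.00980). Klk7, its partner protease, overlapped at 231 ± 8.24 FPKM in DTR and 238 ± 16.99 FPKM in Cre skin (adjusted p = 0.619).

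Krt10 (chromosome 11, 99246568 to 99250678) was at 6864, 6429, 6819 and 6614 FPKM in DTR libraries and at 5638, 5988, 5452 and 5954 FPKM in Cre libraries. Krt2, a keratin of the uppermost living layers (chromosome 15, 101641119 to 101648600), was at 6600, 5756, 6198 and 5980 FPKM in DTR libraries, against 5404, 5340, 4991 and 5303 FPKM in Cre libraries. Both keratins had every DTR value above every Cre value, with log2 changes of 0.22 (adjusted p = 0.0393 for Krt10 and 0.0448 for Krt2). Sprr1a, a crosslinked envelope protein (chromosome 3, 92287875 to 92289803), was at 143, 168, 113 and 137 FPKM in DTR libraries and at 99.3, 86.9, 128 and 87.6 FPKM in Cre libraries. DTR library 3 and Cre library 3 overlapped here, and the log2 change was 0.48 (SE 0.14, adjusted p = 0.0476). These last 3 calls were narrow. Leaving out single libraries ended the call of Krt2 each time (adjusted p = 0.0623 to 0.116), that of Krt10 except without Cre library 4 (0.0569 to 0.104), and that of Sprr1a except without DTR library 3 or Cre library 3 (0.0790 to 0.116). Without DTR library 1, 2 or 4, 3 members remained past the threshold in place of 6. Tgm3, Aloxe3 and Klk5 stayed past the threshold with each of the 8 libraries left out.

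Some of these calls depended on scaling. As deposited, 926 genes were higher and 755 lower; with median centring 705 were higher and 1058 lower, and with centring on the basal keratinocyte list 189 were higher and 1043 lower. Krt10 and Krt2 then missed the threshold, with adjusted p of 0.0739 and 0.0726 under median centring and 0.299 and 0.271 under basal centring, where Sprr1a missed it too (0.0841). The members called were 3 higher and 2 lower under median centring, and 2 higher and 2 lower under basal centring, the additional lower one in both being Lce3c.

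**Figure D1:**
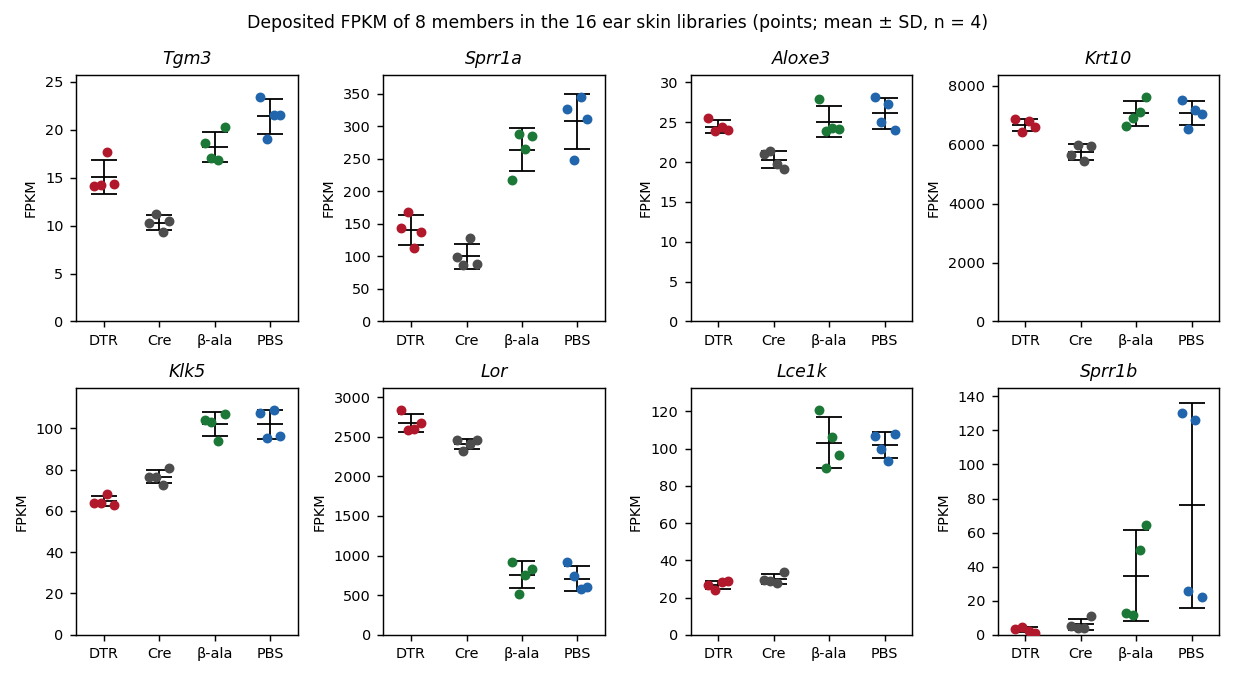
Deposited FPKM of 8 members in the 16 ear skin libraries, as points for DTR, Cre, β-ala and PBS skin, with the mean and SD of each group as bars (n = 4); each axis starts at 0. DTR points lie above all Cre points for Tgm3, Aloxe3, Krt10 and Lor and below them for Klk5, Lor is at 519 to 922 FPKM in β-ala and PBS libraries, and Sprr1b differs widely within the β-ala and PBS groups.

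Loricrin, the main envelope protein by mass, did not pass. Lor (chromosome 3, 91884192 to 91887064) was at 2833, 2585, 2592 and 2673 FPKM in DTR libraries and at 2458, 2317, 2404 and 2458 FPKM in Cre libraries. The groups did not overlap, and the log2 change was 0.15 (SE 0.051, adjusted p = 0.0802). Lor and Lce3c were the only members without overlap that missed the threshold; in all, 7 of 48 members (14.6%) did not overlap, beside 21.2% of all genes. Of these, 5 were higher, beside 11.7% of all genes, and 2 lower, beside 9.45%. Ivl, the early envelope precursor involucrin, averaged 51.7 ± 0.888 FPKM in DTR and 48.5 ± 2.91 FPKM in Cre skin (SD, n = 4, adjusted p = 0.185). Of the filaggrin-like genes, Flg2 and Hrnr had adjusted p of 0.567 and 0.196. Rptn, repetin, was at 3.83, 3.72, 2.32 and 3.02 FPKM in DTR libraries and at 1.38, 1.88, 3.01 and 1.13 FPKM in Cre libraries, with Cre library 3 inside the DTR range (log2 change 0.60, adjusted p = 0.0646). The corneodesmosome genes Cdsn, Dsc1 and Dsg1a had log2 changes of 0.16, 0.15 and 0.15 and adjusted p of 0.109, 0.141 and 0.101. Tgm1, the transglutaminase anchored at the membrane, averaged 28.1 ± 1.95 FPKM in DTR and 26.3 ± 1.22 FPKM in Cre skin (adjusted p = 0.284), and Casp14, a caspase of cornification, 18.4 ± 1.39 and 18.3 ± 1.68 FPKM (adjusted p = 0.936).

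The Sprr and Lce families did not move as blocks in DTR skin. Among the 11 Sprr genes, Sprr1a alone passed, 4 had positive and 7 negative log2 changes. Sprr1b, a proline-rich protein known for induction in stressed epidermis, was at 3.47, 4.60, 2.38 and 1.23 FPKM in DTR libraries and at 4.89, 4.08, 4.15 and 11.03 FPKM in Cre libraries, so that Sprr1a and Sprr1b pointed in opposite directions (log2 changes 0.48 and -0.82, adjusted p = 0.0476 and 0.114). Sprr2h, the highest Sprr2 member over all 16 libraries, was at 1.90, 2.77, 1.58 and 0.758 FPKM in DTR libraries and at 2.88, 2.65, 2.64 and 4.80 FPKM in Cre libraries (adjusted p = 0.0810). Sprr2a1 went the other way, at 1.32, 1.09, 2.17 and 3.27 FPKM in DTR libraries and at 0.708, 0.874, 1.21 and 0.672 FPKM in Cre libraries (log2 change 0.62, adjusted p = 0.0705). Sprr4, a shorter relative, was at 5.88, 17.8, 6.08 and 6.45 FPKM in DTR libraries and at 5.60, 7.34, 8.36 and 0 FPKM in Cre libraries. Its fitted change of 0.93 became 0.18 with the 0 set to missing (adjusted p = 0.738).

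Of the 19 Lce genes 0 passed. All 13 Lce1 genes had negative log2 changes as deposited, from -0.19 (Lce1e) to -0.01 (Lce1a1), but 10 of the 13 were positive after quantile normalization or after correction for transcript length, so they have no stable direction. Lce1m, the highest of them, averaged 811 ± 38.5 FPKM in DTR and 844 ± 81.7 FPKM in Cre skin (SD, n = 4, adjusted p = 0.619). Lce6a was at 42.9, 44.0, 50.6 and 44.3 FPKM in DTR libraries and at 50.3, 51.2, 47.4 and 55.1 FPKM in Cre libraries (log2 change -0.16, adjusted p = 0.0983). Lce3c was at 9.77, 9.33, 10.9 and 9.87 FPKM in DTR libraries, all below the 13.5, 11.4, 13.3 and 20.7 FPKM of Cre libraries (log2 change -0.49, SE 0.14, adjusted p = 0.0504). It shares 35.71% of its 50-base words with other genes, and in other settings its adjusted p fell on either side of the threshold.

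**Figure D2:**
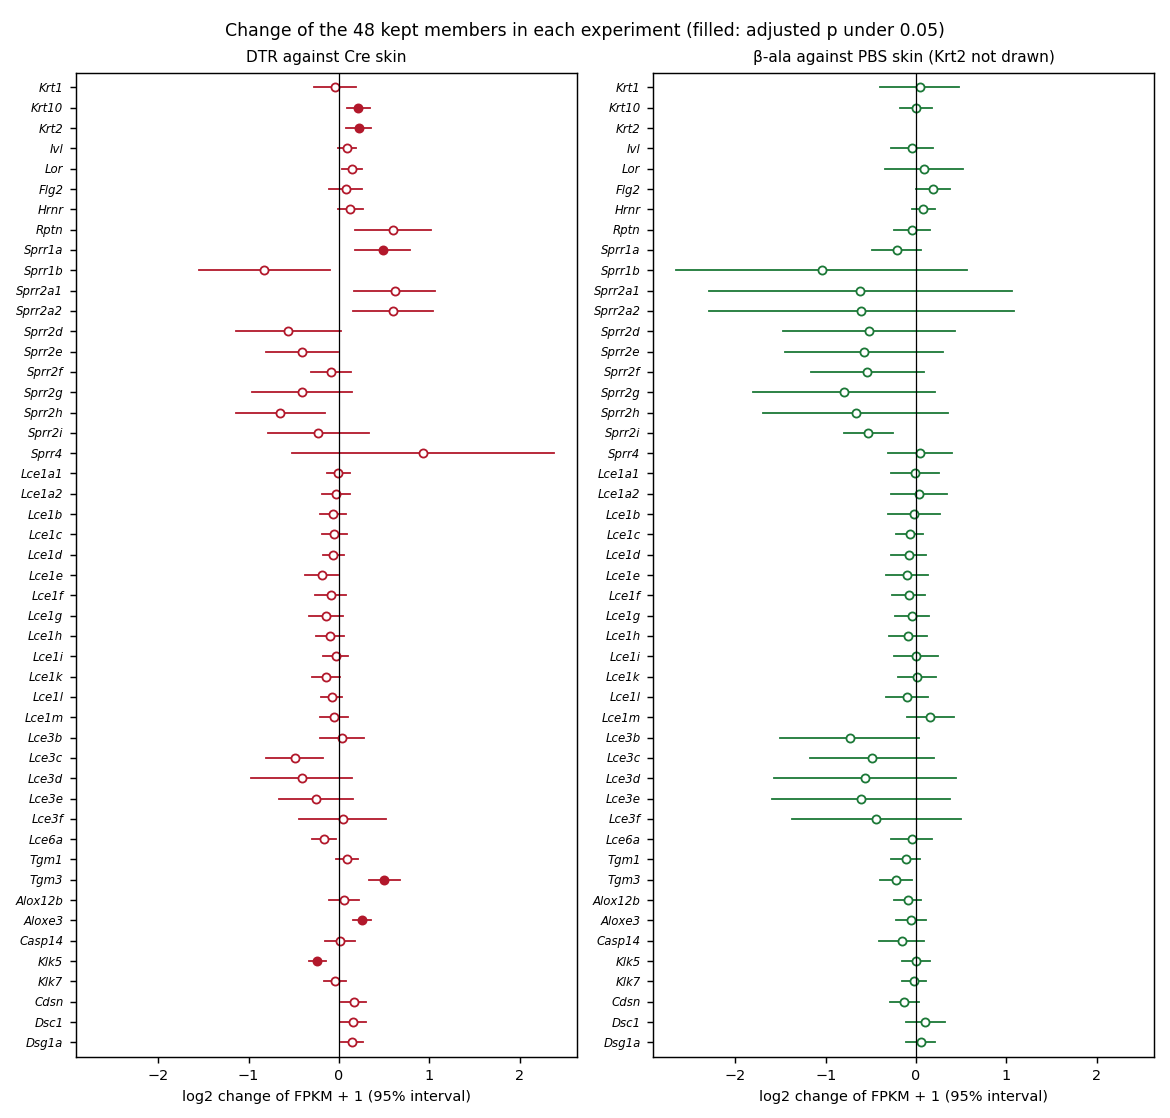
Log2 change of FPKM + 1 with its 95% interval for the kept members, DTR against Cre skin on the left and β-ala against PBS skin on the right, ordered by role; filled points have an adjusted p under 0.05. There are 6 filled points on the left and 0 on the right, and Krt2 is not drawn on the right because its PBS value of 0 sets the fit.

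Other genes of the epidermal barrier gave a mixed picture in the same comparison. Their lists follow known function but were chosen with earlier results of these data known. The counts are to be read beside the 7.13% of all genes that were higher and the 5.81% that were lower. Of 13 desmosome and envelope scaffold genes, 4 rose (30.8%) and 0 fell, and 3 to 8 were higher under the 4 other scalings. These include Evpl, envoplakin, at 39.3 ± 1.65 FPKM in DTR and 30.1 ± 0.919 FPKM in Cre skin (SD, n = 4, adjusted p = 0.00143), Ppl, periplakin, at 92.0 ± 2.40 and 76.5 ± 2.97 FPKM, and Dsp, desmoplakin, at 271 ± 8.74 and 224 ± 15.6 FPKM. Envoplakin and periplakin form the scaffold on which the envelope is laid down. Of 17 genes that process the envelope or regulate its proteases, 3 rose (17.6%) and 1 fell (5.88%), against 1 higher and 1 lower with basal centring, among them Spink5, an inhibitor of Klk5, at 125 ± 3.63 FPKM in DTR and 103 ± 4.60 FPKM in Cre skin (log2 change 0.28, adjusted p = 0.00567). Ctsl, a lysosomal protease, fell to 135 ± 3.61 FPKM in DTR skin, against 158 ± 8.85 FPKM in Cre skin. Of 20 lipid barrier genes 0 passed limma, and quantile normalization called 1. Of 20 transcriptional and signalling regulators of differentiation, 5 rose (25%) and 0 fell, against 1 higher and 1 lower with basal centring, with Maf at 40.9 ± 3.31 FPKM in DTR and 31.8 ± 1.78 FPKM in Cre skin and Notch3 and Ehf next by p. Of 12 S100 genes of the same chromosome 3 complex, 3 fell (25%) and 0 rose, and 1 was lower after length correction. Of 12 basal keratinocyte genes 1 rose, Col17a1, at 236 ± 13.05 FPKM in DTR and 207 ± 12.1 FPKM in Cre skin, a call that median centring, basal centring and length correction ended, and of 8 stress and suprabasal keratins 1 rose, Krt17.

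Markers of other tissue moved between the same groups. Of 12 adipocyte genes 10 fell, and the list summed to 373 to 437 FPKM in DTR libraries and 723 to 874 FPKM in Cre libraries. Of 12 skeletal muscle genes 9 fell, with sums of 935 to 1277 FPKM in DTR and 1683 to 4005 FPKM in Cre libraries. All 9 mast cell genes tested rose, with sums of 198 to 242 FPKM in DTR and 67.4 to 87.9 FPKM in Cre libraries. Basal keratinocyte genes summed to 5548 to 5987 FPKM in DTR and 5052 to 5365 FPKM in Cre libraries, ranges that do not overlap. Of 12 hair shaft and 11 inner root sheath genes, 2 each passed the filter, and 2 hair shaft genes and 1 root sheath gene were at 0 in all DTR libraries. Of 10 sebocyte genes 1 fell, and of 10 fibroblast genes 1 rose. The part of these tissues in the changes of Tgm3, Aloxe3, Krt10, Krt2, Sprr1a and Klk5 was not tested. In the 24 mast cell libraries of the series, 46 of the 48 kept members were under 0.5 FPKM in every library, the exceptions being Tgm1 and Krt10. Krt10 reached at most 1.69 FPKM there, in a Cre library. Tgm1 averaged 9.42 ± 0.548 FPKM in cultured mast cells given NS102 for 48 h (SD), 0.805 ± 0.582 FPKM in Cre mast cells and 0.0301 ± 0.0212 FPKM in DTR mast cells.

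The second comparison set β-ala skin against PBS skin and asks what a ligand of MrgprD, applied to the ear, did to the same genes. Of the 48 members, 0 passed limma, beside 0.223% of all genes (29 of 12995, with 0.0231% higher and 0.2% lower); 2 members, Sprr2i and Tgm3, had an unadjusted p under 0.05, both lower. Major members lay close together. Lor was at 912, 519, 753 and 836 FPKM in β-ala libraries and at 922, 744, 573 and 600 FPKM in PBS libraries, with ranges that overlap almost fully. Its log2 change was 0.08, with a 95% interval of -0.35 to 0.51. Krt10 averaged 7069 ± 416 FPKM in β-ala and 7080 ± 406 FPKM in PBS skin (SD, n = 4), with an interval of -0.18 to 0.18, and Klk7 343 ± 11.6 and 349 ± 13.4 FPKM, with an interval of -0.15 to 0.11. The intervals also included 0 for Ivl (-0.27 to 0.19), Tgm1 (-0.28 to 0.05), Casp14 (-0.41 to 0.09), Dsc1 (-0.12 to 0.32) and Alox12b (-0.25 to 0.06). Krt2 was at 4456, 5578, 5088 and 5655 FPKM in β-ala libraries and at 6031, 4907, 0 and 5999 FPKM in PBS libraries. The fitted change of 2.99 is set by that 0, and with it missing the change was -0.12 (adjusted p = 0.780).

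Tgm3 was at 18.6, 17.1, 16.8 and 20.3 FPKM in β-ala libraries, against 23.4, 19.1, 21.6 and 21.5 FPKM in PBS libraries (log2 change -0.22, unadjusted p = 0.0212 by limma, adjusted p = 0.429). Sprr2i and Cdsn were the members whose groups did not overlap, both lower, which is 4.17% of members. Over all genes 6.39% did not overlap, 5.51% lower and 0.877% higher. Sprr2i was at 1.93, 1.24, 1.49 and 1.82 FPKM in β-ala libraries and at 2.78, 2.30, 3.57 and 2.50 FPKM in PBS libraries (adjusted p = 0.193). Cdsn, corneodesmosin, was at 268, 269, 225 and 256 FPKM in β-ala libraries, against 290, 274, 276 and 272 FPKM in PBS libraries (adjusted p = 0.599). Of the 48 members 36 had negative log2 changes, with a median of -0.08 beside -0.04 over all genes.

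Sprr1b and the 8 kept Sprr2 genes all had negative log2 changes, from -1.05 to -0.52, as did the 5 kept Lce3 genes, from -0.74 to -0.44, under each of the 4 other scalings too. These genes were measured in the same libraries, and 0 of them passed. Their intervals were wide: that of Sprr1b ran from -2.66 to 0.57. Shared 50-base words ran from 0 for Sprr1b, Sprr2g and Sprr2h to 96.45% for Sprr2a2. Sprr2f and Lce3b were kept by the filter mainly through PBS libraries, where they are higher. Sprr1a, less variable, was at 218, 289, 266 and 285 FPKM in β-ala libraries and at 326, 248, 345 and 311 FPKM in PBS libraries (adjusted p = 0.603). Of the 13 Lce1 genes 10 had negative changes as deposited and 5 to 11 under the other scalings. In the wider lists, 0 of 12 basal, 13 desmosome, 20 lipid barrier, 17 envelope processing, 20 regulator and 12 S100 genes passed, while 6 of 9 mast cell genes fell.

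The effect in DTR skin was then set against the effect of β-ala over all 16 libraries. For 3 members the difference passed, beside 6.66% of all genes (5.39% positive and 1.28% negative): Tgm3 (difference in log2 change 0.73, SE 0.12, adjusted p = 0.00214), Aloxe3 (0.31, SE 0.086, adjusted p = 0.0414) and Sprr1a (0.70, SE 0.20, adjusted p = 0.0454). That is 6.25% of the 48 members. In each case the change was positive in DTR against Cre skin and negative in β-ala against PBS skin, where by itself it did not pass. For Klk5 the difference was -0.24 (adjusted p = 0.0769) and for Krt10 0.22 (adjusted p = 0.145). Tgm3 kept its call with each of the 16 libraries left out. Aloxe3 and Sprr1a did not, and without DTR library 1, 2 or 4, Cre library 2 or 4, β-ala library 4, or PBS library 1 or 3, Tgm3 was the 1 member left. Their adjusted p then reached 0.0924 for Aloxe3 and 0.0996 for Sprr1a, both without Cre library 4. Over all genes, 700 differences were positive and 166 negative as deposited, against 339 and 347 with median centring, where Aloxe3 (0.0715) and Sprr1a (0.0727) missed the threshold and Klk5 passed it (0.0280).

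Of the comparisons made, the one between the control groups called the most members. Cre skin, set against PBS skin, was lower for 40 of 48 members and higher for 2, Lor and Flg2. Among the lower ones, Sprr2e, Sprr2f and Lce3b reached 1 FPKM only in β-ala and PBS libraries. The filter kept them through groups where they are high, so their direction carries no weight. The 42 members called are 87.5%, beside 52.5% of all genes, and the 40 lower members are 83.3%, beside 37.6%, while the 2 higher are 4.17%, beside 15%. For 39 members (81.2%) the groups did not overlap, beside 51% of all genes; 37 of these were lower, beside 36.1%, and 2 higher, beside 14.9%. The median log2 change was -0.82 for members and -0.11 over all genes. With median centring, which brings the median of all genes to 0.00 and changes their split to 3382 higher and 3229 lower from 1946 and 4881, 44 members were called, 40 lower and 4 higher, Hrnr and Dsg1a joining Lor and Flg2. Cre and PBS skin differ in mouse stock, Mrgprd genotype, vehicle, toxin as far as the protocol states it, and sex, and these cannot be told apart. The comparison of DTR with Cre skin uses the same Cre libraries, so the pair of comparisons is not independent.

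Lor was at 2458, 2317, 2404 and 2458 FPKM in Cre libraries, against 922, 744, 573 and 600 FPKM in PBS libraries, a 3.45-fold difference (log2 change 1.79, SE 0.15, adjusted p = 1.27e-07). DTR libraries held 2585 to 2833 FPKM and β-ala libraries 519 to 912 FPKM, so the Lor values of DTR and Cre libraries and those of β-ala and PBS libraries form a pair of ranges that do not meet. Flg2, a filaggrin relative, was at 73.0, 87.2, 65.4 and 76.5 FPKM in Cre libraries and at 44.8, 55.1, 53.4 and 49.9 FPKM in PBS libraries (log2 change 0.56, adjusted p = 6.05e-05). Hrnr, hornerin, averaged 40.4 ± 3.34 and 37.6 ± 1.01 FPKM and did not pass as deposited (adjusted p = 0.181).

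All 11 Sprr genes were lower in Cre skin, though Sprr2e, Sprr2f and Sprr2i would not have passed the filter without β-ala and PBS libraries. Sprr1a was at 99.3, 86.9, 128 and 87.6 FPKM in Cre libraries, against 326, 248, 345 and 311 FPKM in PBS libraries (log2 change -1.61, SE 0.14, adjusted p = 1.51e-07). Sprr1b was at 4.89, 4.08, 4.15 and 11.03 FPKM in Cre libraries and at 130, 25.7, 126 and 22.2 FPKM in PBS libraries (log2 change -3.11, SE 0.62, adjusted p = 0.000546), and the lowest PBS value was still above the highest Cre value. Sprr4 was at 5.60, 7.34, 8.36 and 0 FPKM in Cre libraries, against 41.9, 29.6, 27.4 and 40.04 FPKM in PBS libraries. Its log2 change was -2.88 as deposited and -2.13 with the 0 missing, past the threshold both ways. Sprr2h, at 2.88, 2.65, 2.64 and 4.80 FPKM in Cre and 32.4, 13.9, 38.9 and 12.6 FPKM in PBS libraries, changed by -2.46.

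Of 19 Lce genes 16 were lower in Cre skin, 12 of 13 in the Lce1 group, and Lce1m, Lce3c and Lce3e did not pass. Lce3b and Lce3f, among the 16, would not have passed the filter without β-ala and PBS libraries. Lce1k was at 29.4, 28.8, 27.8 and 33.8 FPKM in Cre libraries, against 107, 99.8, 93.3 and 108 FPKM in PBS libraries (log2 change -1.74, SE 0.087, adjusted p = 5.15e-10), whereas Lce1m overlapped at 844 ± 81.7 and 924 ± 104 FPKM (SD, n = 4, adjusted p = 0.286). Both are Lce1 genes of the same cluster. Lce1c, Lce1d and Lce1e changed by -0.96, -1.11 and -1.05. Lce6a was at 50.3, 51.2, 47.4 and 55.1 FPKM in Cre libraries and at 135, 137, 161 and 119 FPKM in PBS libraries (log2 change -1.41, adjusted p = 4.41e-09). Lce3c was at 13.5, 11.4, 13.3 and 20.7 FPKM in Cre and 29.2, 15.1, 36.8 and 16.7 FPKM in PBS libraries and narrowly missed the threshold (adjusted p = 0.0539). Its adjusted p passed when Cre library 4, PBS library 2 or 4, or β-ala library 2 or 4, which shares in the estimate of spread, was left out (0.0176 to 0.0467).

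All 7 enzymes among the members were lower in Cre skin, under each of the 5 scalings. Tgm3 averaged 10.3 ± 0.749 FPKM in Cre and 21.4 ± 1.79 FPKM in PBS skin (SD, n = 4, log2 change -0.98, adjusted p = 9.70e-08), Tgm1 26.3 ± 1.22 and 42.1 ± 2.86 FPKM (-0.66), Casp14 18.3 ± 1.68 and 42.8 ± 7.11 FPKM (-1.17), and Alox12b 31.6 ± 2.36 and 57.4 ± 3.92 FPKM (-0.84). Aloxe3, Klk5 and Klk7 changed by -0.35, -0.41 and -0.55. Among the keratins, Krt1 (-0.82, adjusted p = 0.000857) and Krt10 (-0.30, adjusted p = 0.000928) were lower. Krt10 missed the threshold when centred on the basal list (adjusted p = 0.230) or corrected for length (0.173). Krt2 was at 5404, 5340, 4991 and 5303 FPKM in Cre libraries beside 6031, 4907, 0 and 5999 FPKM in PBS libraries, a change of -0.10 with the 0 missing (adjusted p = 0.398). Cdsn averaged 170 ± 3.496 FPKM in Cre and 278 ± 7.99 FPKM in PBS skin (log2 change -0.70, adjusted p = 4.03e-07), Dsc1 72.7 ± 3.53 and 97.8 ± 12.4 FPKM (-0.42, adjusted p = 0.000861), and Dsg1a 292 ± 17.2 and 273 ± 8.01 FPKM, not past the test as deposited. Dsc1 missed the threshold with quantile normalization (-0.22, adjusted p = 0.0590) and basal centring (-0.23, adjusted p = 0.0649). Ivl was lower, at 48.5 ± 2.91 and 76.7 ± 10.5 FPKM (-0.64).

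**Figure D3:**
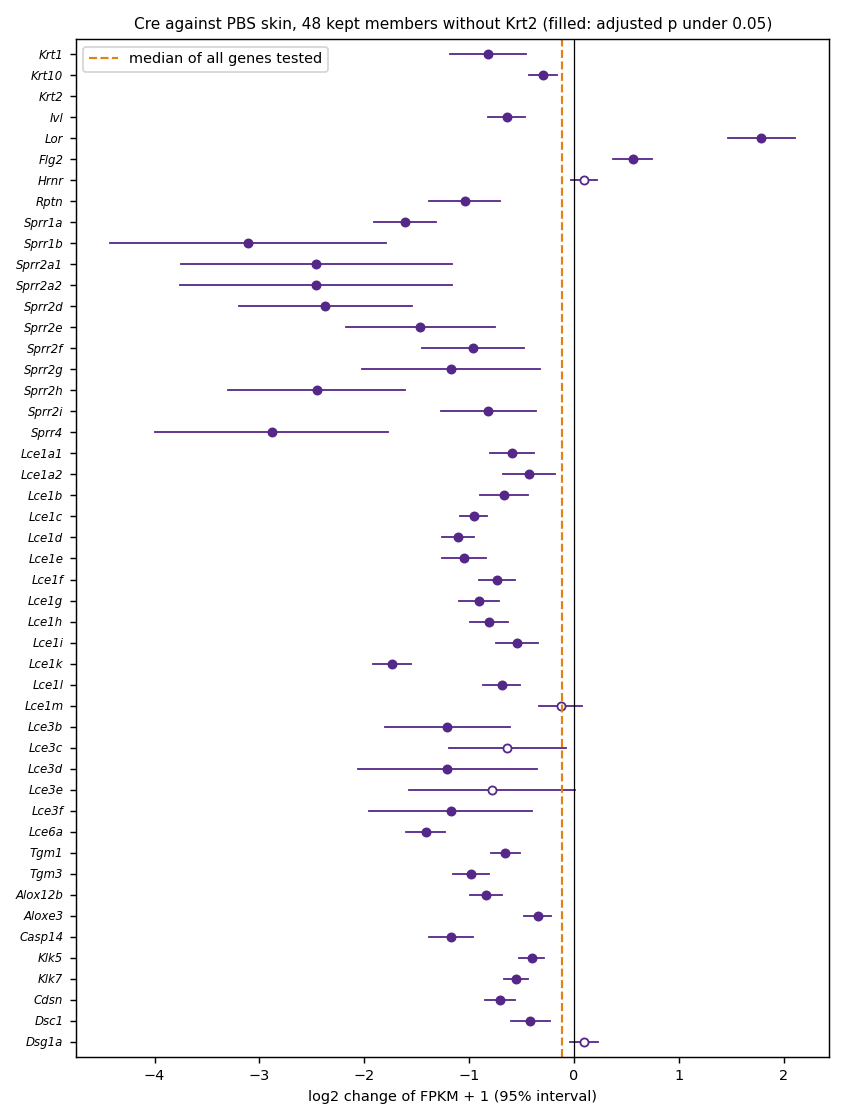
Log2 change of FPKM + 1 with its 95% interval for the kept members in Cre against PBS skin, ordered by role, without Krt2; filled points have an adjusted p under 0.05 and the dashed line is the median of all 12995 genes tested (-0.11). Lor and Flg2 stand right of 0, and the 11 Sprr points all lie left of the dashed line.

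Shares of lower genes in Cre skin in the other barrier lists are set beside the 37.6% of all genes, as a description without a test. The lists for lipids and envelope processing stood furthest above it. Of 20 lipid barrier genes 14 were lower (70%) and 0 higher, with Sult2b1, a cholesterol sulfotransferase, at 32.7 ± 2.37 FPKM in Cre and 55.2 ± 4.10 FPKM in PBS skin (SD, n = 4). With median centring 13 were lower and 0 higher. Of 17 envelope processing genes 14 were lower (82.4%) and 0 higher, against 10 and 0 with median centring, with Klk10 at 16.2 ± 5.10 and 54.4 ± 1.01 FPKM and Cst6, cystatin M/E, at 73.7 ± 12.8 and 174 ± 21.5 FPKM. Of 12 S100 genes 6 were lower (50%) and 1 higher. Of 20 regulators 8 were lower (40%) and 4 higher (20%), near the 37.6% and 15% of all genes, and with median centring 5 were lower and 6 higher. Cebpb and Cebpa, transcription factors of keratinocyte differentiation, were among the higher ones, at 73.3 ± 3.55 FPKM in Cre and 20.8 ± 2.97 FPKM in PBS skin and at 183 ± 2.72 and 87.8 ± 5.68 FPKM. Of 12 basal genes 6 were lower and 0 higher, against 5 and 2 with median centring. Of 13 desmosome genes 5 were lower and 0 higher, and of 8 stress and suprabasal keratins 5 were lower and 0 higher. The shares of the S100, basal and stress keratin lists thus also lay above that of all genes. Beside these, 7 of 9 mast cell, 5 of 12 adipocyte and 6 of 12 muscle genes were lower and 7 of 10 fibroblast genes higher with 1 lower, and their part in the result was not tested.

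To show the start regions of members that stood on opposite sides of this contrast, the 250 bases before the RefSeq start of 4 genes follow (GRCm38.p6, 5′ to 3′ on the gene's strand). Capitals mark TGANTCA, the AP-1 motif, and TATAAA, the TATA motif, searched on both strands. Lor carried 1 AP-1 match, Sprr1a 2 and Sprr1b 1, each with 1 TATA match, and Lce1k neither.
Lor (chr3:92083143-92083392, minus strand): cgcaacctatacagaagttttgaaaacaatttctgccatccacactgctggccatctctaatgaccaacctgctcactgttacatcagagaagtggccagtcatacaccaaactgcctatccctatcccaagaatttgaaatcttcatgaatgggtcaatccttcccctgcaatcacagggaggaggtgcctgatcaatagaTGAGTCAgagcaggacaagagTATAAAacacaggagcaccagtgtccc
Sprr1a (chr3:92485882-92486131, minus strand): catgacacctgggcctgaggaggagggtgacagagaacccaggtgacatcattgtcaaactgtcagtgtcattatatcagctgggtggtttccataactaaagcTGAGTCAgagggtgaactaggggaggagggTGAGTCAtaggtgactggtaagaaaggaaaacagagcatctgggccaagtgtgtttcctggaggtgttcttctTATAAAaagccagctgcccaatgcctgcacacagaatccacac
Sprr1b (chr3:92438780-92439029, minus strand): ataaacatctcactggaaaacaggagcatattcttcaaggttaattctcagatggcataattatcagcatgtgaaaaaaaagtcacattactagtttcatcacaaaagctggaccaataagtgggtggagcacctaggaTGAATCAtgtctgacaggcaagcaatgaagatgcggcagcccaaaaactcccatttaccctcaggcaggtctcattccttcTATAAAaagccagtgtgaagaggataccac
Lce1k (chr3:92807892-92808141, minus strand): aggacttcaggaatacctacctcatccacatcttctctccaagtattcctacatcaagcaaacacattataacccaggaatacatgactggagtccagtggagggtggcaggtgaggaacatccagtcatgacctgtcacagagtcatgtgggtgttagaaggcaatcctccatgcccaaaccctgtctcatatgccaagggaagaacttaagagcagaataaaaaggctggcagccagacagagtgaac
Of the 48 kept members 42 matched the RefSeq promoter table, with 44 promoters. TGANTCA was present in 11 of these 44 (25%), beside 6.749% of 32851 promoters of the same length, and TATAAA in 17 (38.64%), beside 12.37%. Many members arose by duplication, so their promoters are not independent. Of the genes shown with an AP-1 match, Lor was higher and Sprr1a and Sprr1b were lower in Cre skin.

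Members also differed in how evenly the libraries of 1 group expressed them. For Sprr1b, the 8 Sprr2 genes and the 5 Lce3 genes, the median coefficient of variation within a group was 49.9% in DTR, 55.8% in Cre, 61.6% in β-ala and 63.5% in PBS skin. For the 13 Lce1 genes it was 6.86%, 7.20%, 13.1% and 10.4% in the same groups. In the β-ala and PBS groups most of the Sprr1b, Sprr2 and Lce3 genes were high in the same libraries. In β-ala skin libraries 3 and 4 were the top pair for 11 of the 14 genes, and in PBS skin libraries 1 and 3 were for 10 of 14. The DTR and Cre groups had no pair common to most genes: libraries 3 and 4 were the top pair for 5 and 3 of the 14 genes. Other pairs were at least as common. In DTR skin libraries 1 and 2 were the top pair for Sprr1b, Sprr2e, Sprr2g, Sprr2h and Lce3d. In Cre skin libraries 2 and 4 were for Sprr2d, Sprr2e, Sprr2g and Lce3d. Sprr2a1 and Sprr2a2, not separate measurements, each count among the 14. By single library, DTR library 3 was highest for 7, Cre library 4 for 6, β-ala library 3 for 7 and PBS library 3 for 11. Sprr1b shows the pairs of the other groups, at 12.6, 11.6, 49.7 and 64.5 FPKM in β-ala libraries and at 130, 25.7, 126 and 22.2 FPKM in PBS libraries. Among stress keratins that are not members, Krt16, a keratin of stressed and wounded epidermis, was at 10.8, 6.57, 55.5 and 43.03 FPKM in β-ala libraries and at 48.8, 10.7, 153 and 28.01 FPKM in PBS libraries. Krt17, of the same list, did not follow, at 212, 209, 139 and 151 FPKM in β-ala libraries and at 170, 210, 192 and 238 FPKM in PBS libraries. S100a8, an alarmin of inflamed epidermis, was at 3.73, 4.98, 16.4 and 12.2 FPKM and at 9.55, 1.64, 29.5 and 21.01 FPKM in the same libraries. In DTR skin Krt16 was at 4.89, 10.7, 4.92 and 4.83 FPKM, the highest in library 2, which also held the highest Sprr1b at 4.60 FPKM. That library was highest for 5 of the 14 genes, against 7 for library 3, where Krt16 was not raised. In Cre skin library 4 held the highest Sprr1b (11.03 FPKM) and Krt16 (11.8 FPKM). The part of these stress genes in the comparisons above was not tested.

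**Figure D4:**
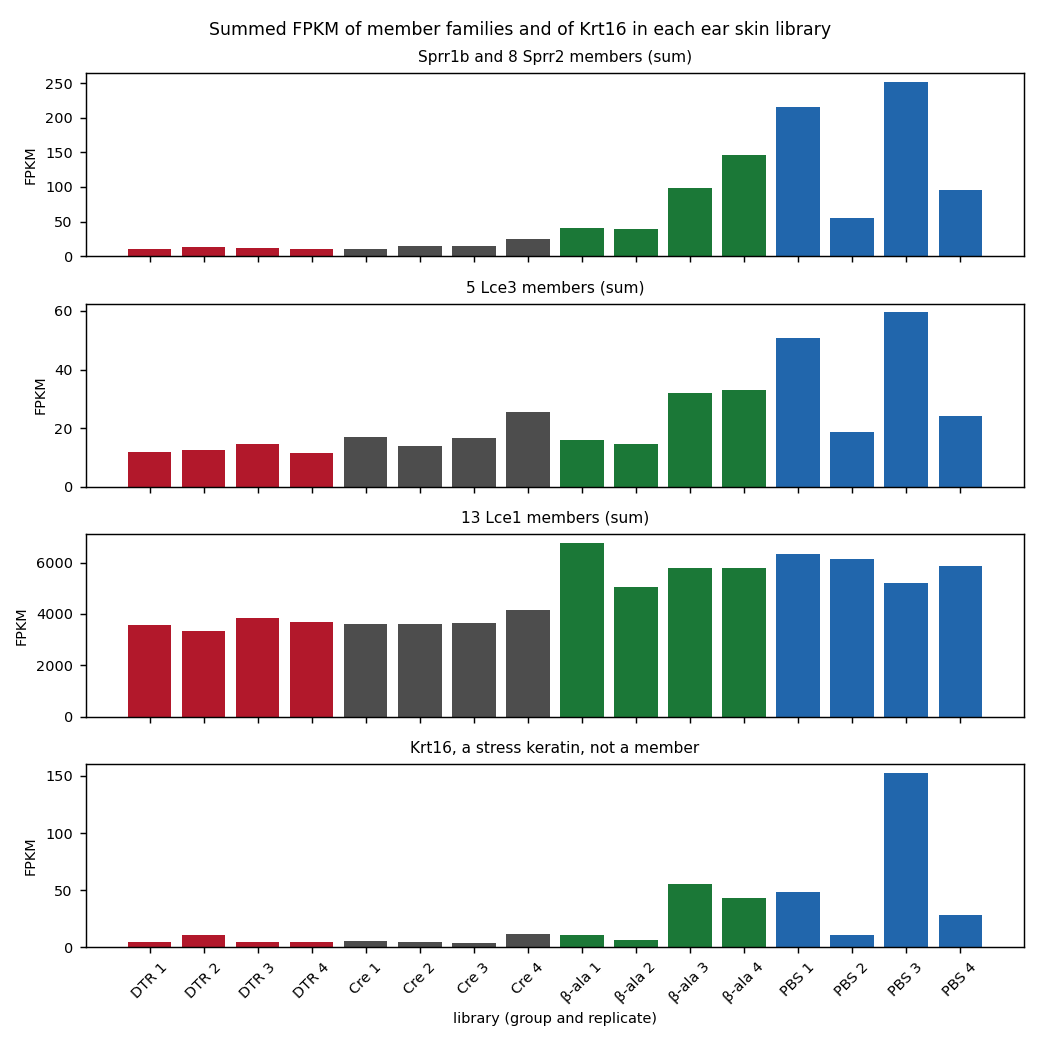
Summed FPKM per library of Sprr1b with the 8 kept Sprr2 genes, of the 5 kept Lce3 genes and of the 13 Lce1 genes, with Krt16 below, for 4 libraries each of DTR, Cre, β-ala and PBS skin; bars start at 0. In β-ala skin libraries 3 and 4, and in PBS skin libraries 1 and 3, stand above the others for the first 2 sums, while the Lce1 sum stays between 5067 and 6776 FPKM in these groups.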

How the data were processed

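Ear skin RNA was sequenced on Illumina HiSeq instruments, per the labels. The deposited FPKM values come from the authors' STAR alignment to mm9 and Cufflinks, per the submitters' processing notes; versions are not given in the sources used here. With no counts at hand the depth is unknown, and intervals for counting error are left out. Genes with at least 1 FPKM in 4 of 16 skin libraries were kept, and log2(FPKM + 1) was fitted with limma 3.58.1 (with trend, R 4.3.3) over all 12995 kept genes, with Benjamini-Hochberg adjustment. Such changes understate those of low genes. DTR against Cre and β-ala against PBS used their own 8 libraries; the difference of these effects and Cre against PBS used all 16, with 1 shared spread. The fit was tested on simulated data. Tables were handled with Python 3.11.15, numpy 2.4.6 and pandas 2.3.3, and plots with matplotlib 3.10.9.

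The members and gene lists were chosen with earlier results of these data known. Named were 11 classical members whatever their p, the highest of each subfamily, up to 10 members a direction past the test in order of p, and up to 3 genes of each other list. Sprr1b, Sprr2a1, Sprr2i, Rptn, Hrnr, Dsg1a, Lce1a1, Krt16 and S100a8 were named after their values were seen. Alternatives changed the pseudocount, filter, scaling, trend, spread, replicate block, values of 0 and the libraries included.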

Additional observations from a re-analysis of the deposited data

Results flagged for a closer look

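In 7 of the 100 sets of 4 libraries looked at for the 25 named members, the highest or lowest library lay farther from its nearest neighbour, as a share of the group's range, than Dixon's critical value at the 95% level, which by its construction marks about 1 in 20 such sets. Tgm3 reached 17.69 FPKM in DTR library 3, and Sprr4 reached 17.83 FPKM in DTR library 2. In Cre skin, Casp14 was lowest in library 3 at 15.76 FPKM and Sprr2h highest in library 4 at 4.798 FPKM. In β-ala skin, Aloxe3 was highest in library 1 at 27.97 FPKM, while Lce1c (579.2 FPKM) and Lce1e (177.9 FPKM) were lowest in library 2.

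The effect in DTR against Cre skin differed from that in β-ala against PBS skin, by a test of the difference itself, for Tgm3 (0.7264 on the log2 scale), Sprr1a (0.7001) and Aloxe3 (0.3136).

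Outside skin, Tgm1 averaged 9.416 FPKM in cultured mast cells given NS102 for 48 h, 4.195 FPKM in those given vehicle for 48 h 1.658 FPKM in those given glutamate for 6 h and 1.245 FPKM in those given vehicle for 6 h.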

How the results depend on the processing

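Of the 6 members called in DTR against Cre skin, 3 were called with a pseudocount of 0.1 and 3 with no filter on low values, 4 to 9 under the other planned settings, and 3 to 5 with 1 library left out. The 3 differences of effects became 1 with basal centring and 1 with length correction, and 1 to 3 with 1 library left out. The cause was not tested. In β-ala against PBS skin 0 members were called under every setting run, and in Cre against PBS skin 35 to 44. Quantile normalization sets the change of Krt10 to 0 by construction. For single members, 79 values lost their call, 25 gained one and 0 called values reversed.

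Replicate numbers are not stated to pair the samples, and same-numbered libraries correlated by -0.1559 to 0.3678; 3 of 4 DTR and Cre pairs, and 1 of 4 β-ala and PBS pairs, correlated best with their own number. With a replicate block, 4 members were called in DTR against Cre skin (Krt10, Krt2 and Sprr1a lost, Lce3c gained), 0 in β-ala against PBS, 44 in Cre against PBS and 3 for the difference (Sprr1a lost at an adjusted p of 0.0748, Cdsn gained at 0.0499). Added after seeing the data were values of 0 set to missing, and the spread of Cre and PBS skin alone; both kept each count of members. Unknown depth limits all low members, chiefly Sprr2 and Lce3.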
